A study of Mus musculus with 96 samples.

Results

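Keeping C2C12 myotubes at 5% oxygen before and during inhibition of their ATP synthase moved 4156 of 12491 genes tested (33.3%), relative to inhibition at standard oxygen. The 2091 that rose (16.7%) included most tested members of a list of targets of the hypoxia-inducible factors (HIF). The 2065 that fell (16.5%) included most tested members of lists for the integrated stress response and the cell cycle. C2C12 is a mouse myoblast line that fuses into myotubes in low serum. The comparison set 3 libraries of untransduced myotubes treated with oligomycin in a 5% O2 incubator against 3 libraries of the same cells treated with oligomycin at standard oxygen, chosen by their labels as 6 of the 96 samples of the series. Oligomycin blocks the proton channel of ATP synthase. The study used low oxygen to dampen residual electron transport, in asking whether a raised potential across the inner membrane underlies the stress response to ATP synthase inhibition.

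The groups compared were myotubes after 4 days in low-serum media (2% dialyzed horse serum, 10 mM glucose, 4 mM glutamine, without pyruvate), treated for 10 hours. The oligomycin groups received 1 µM oligomycin. The low-oxygen groups stood at 5% O2 from the night before and through the treatment, so that exposure to low oxygen was longer than exposure to the inhibitor. For comparison, 3 libraries each came from myotubes with DMSO at standard oxygen, DMSO at 5% O2, oligomycin with 0.5 µM piericidin (an inhibitor of complex I) and oligomycin with 0.5 µM BAM15 (an uncoupler that carries protons across the inner membrane). RNA from a well holds myotubes and any cells that did not fuse, and the labels do not say whether replicates were separate cultures, so p-values measure the spread between these libraries. The 6 libraries held from 8661421 to 11940850 estimated counts.

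Sarcomere transcripts marked all 6 libraries as myotubes. Acta1, skeletal muscle actin, stood from 7503 to 8250 CPM (counts scaled to the library total) in them. It stood at 14.8 to 19.6 in proliferating myoblasts of the series that carry a luciferase control transgene, used for this check alone. Mki67, a proliferation marker, stood at 15.4 or lower in the 6 libraries, against 108 to 114 in those myoblasts. Top2a, Cdk1 and Ccnb1, which also mark dividing cells, were lower as well. Pax7 and Myf5, markers of undifferentiated myoblasts, were not lower. Pax7 stood from 3.7 to 6.6 CPM, against 1.8 to 3.5 in the myoblasts. Myf5 stood from 10.9 to 14.2 with oligomycin at 5% O2 and from 22.9 to 27.55 with oligomycin alone, against 9.96 to 13.2. All 6 libraries at 5% O2 carry column 9 in the position code of the labels (read here as row and column of a 96-well plate, which the labels do not state), whereas the libraries at standard oxygen to which they were compared directly carry columns 6 to 8, so position and oxygen cannot be told apart in them. The groups with piericidin and with BAM15 each have 1 library, replicate 3, in that column. In a principal component analysis of the 12 libraries with DMSO or oligomycin at either oxygen level (12162 genes), PC1 held 41.6% of the variance. Oligomycin at standard oxygen scored -43.6, -42.1 and -37.4 on it, DMSO -2.95, -0.63 and 0.83, 5% O2 alone 28.1, 31.1 and 22.0, and oligomycin at 5% O2 20.0, 18.4 and 6.33. The last of these, replicate 3, stood apart from the other libraries of its group, and its code, so read, is an outer well, as for oligomycin replicates 1 and 2. Without it, 5% oxygen under oligomycin gave 4037 genes, with 35 HIF targets higher and 0 lower, 12 stress regulators lower and 17 cell cycle markers lower.

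Cells read oxygen through prolyl hydroxylases that, in its presence, mark the HIF alpha proteins for destruction by the VHL ubiquitin ligase. When oxygen falls, HIF binds hypoxia response elements and raises genes of glucose uptake, glycolysis, mitophagy and pH control. The integrated stress response starts with kinases that phosphorylate eIF2 alpha, slows most translation and favours that of ATF4, which with DDIT3 and ATF3 raises genes of amino acid synthesis, amino acid transport and tRNA charging. In muscle, ATF4 also drives the secreted factors GDF15 and FGF21.

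Promoters of 3 HIF targets that rose and 3 stress genes that fell are shown to set the sequence beside the response. Each is the 300-base RefSeq promoter (GRCm38.p6, 250 bases before to 50 after a start, 5′ to 3′). Capitals mark matches, on either strand, to the hypoxia element core (ACGTG or GCGTG) in Ankrd37 (chr8:45999801-46000100, minus strand), Bnip3 (chr7:138909457-138909756, minus strand) and Slc16a3 (chr11:120948817-120949116, plus strand), and to the composite CEBP-ATF element bound by ATF4 (TGATGNAA) in Atf3 (chr1:191183284-191183583, minus strand), Trib3 (chr2:152344011-152344310, minus strand) and Asns (chr6:7693160-7693459, minus strand). Neighbouring cores can overlap or adjoin.
Ankrd37: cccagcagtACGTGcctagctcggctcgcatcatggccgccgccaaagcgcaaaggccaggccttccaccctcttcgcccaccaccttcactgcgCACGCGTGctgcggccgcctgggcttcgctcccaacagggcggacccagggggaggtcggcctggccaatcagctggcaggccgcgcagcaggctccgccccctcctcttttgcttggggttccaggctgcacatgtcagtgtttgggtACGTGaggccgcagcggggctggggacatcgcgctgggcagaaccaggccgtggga
Bnip3: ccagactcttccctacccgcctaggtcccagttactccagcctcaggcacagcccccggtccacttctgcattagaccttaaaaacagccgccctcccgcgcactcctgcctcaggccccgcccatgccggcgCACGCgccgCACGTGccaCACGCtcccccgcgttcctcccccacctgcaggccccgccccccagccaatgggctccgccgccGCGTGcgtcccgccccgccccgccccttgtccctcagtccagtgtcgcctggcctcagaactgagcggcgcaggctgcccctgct
Slc16a3: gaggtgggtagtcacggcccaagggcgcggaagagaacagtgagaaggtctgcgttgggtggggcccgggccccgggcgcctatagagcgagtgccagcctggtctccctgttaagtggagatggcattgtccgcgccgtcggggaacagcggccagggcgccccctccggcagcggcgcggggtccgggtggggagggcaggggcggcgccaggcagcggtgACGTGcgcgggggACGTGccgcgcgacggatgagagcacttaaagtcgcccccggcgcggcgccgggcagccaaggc
Atf3: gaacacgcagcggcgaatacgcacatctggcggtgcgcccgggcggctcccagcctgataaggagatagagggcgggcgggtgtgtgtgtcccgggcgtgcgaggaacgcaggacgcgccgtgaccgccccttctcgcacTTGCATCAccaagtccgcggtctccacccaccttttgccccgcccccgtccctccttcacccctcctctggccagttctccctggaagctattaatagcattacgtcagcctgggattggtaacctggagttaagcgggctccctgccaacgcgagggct
Trib3: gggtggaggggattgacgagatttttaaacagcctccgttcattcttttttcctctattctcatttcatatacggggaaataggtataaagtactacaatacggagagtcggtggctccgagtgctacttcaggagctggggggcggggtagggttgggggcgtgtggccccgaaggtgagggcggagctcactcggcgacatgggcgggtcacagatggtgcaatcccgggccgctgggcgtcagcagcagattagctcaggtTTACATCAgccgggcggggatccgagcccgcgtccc
Asns: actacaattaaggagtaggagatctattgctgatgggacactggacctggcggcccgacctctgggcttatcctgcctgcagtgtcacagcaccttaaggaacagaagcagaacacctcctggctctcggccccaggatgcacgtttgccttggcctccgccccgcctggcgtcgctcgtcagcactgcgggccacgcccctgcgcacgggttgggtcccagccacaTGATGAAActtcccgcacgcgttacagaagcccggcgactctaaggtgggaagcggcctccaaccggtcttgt
The Ankrd37 window held 4 hypoxia cores, that of Bnip3 5 and that of Slc16a3 2, and the Atf3, Trib3 and Asns windows held 1 composite element each. The hypoxia core, left in lower case there, also occurred in these, 2 times in Atf3, 1 time in Trib3 and 3 times in Asns. The windows of Ankrd37 and Atf3 belong to RefSeq starts 5857 and 34706 bases from the gene's outermost start in GENCODE, and the other windows to starts within 587 bases of it. The hypoxia core is short and was in 64.3% of the promoters of 9221 tested genes with an entry, against 25 of 30 HIF targets with an entry (83.3%) and 15 of 21 glycolytic genes (71.4%). It was in lists that fell as well, 12 of 12 tRNA synthetases, 10 of 12 amino acid enzymes (83.3%), 10 of 13 stress response regulators (76.9%), 5 of 7 amino acid transporters (71.4%) and 11 of 17 cell cycle markers (64.7%). The composite element was in 2.17% of all promoters, in 5 of those 13 regulators (38.5%), in 5 of 12 tRNA synthetases (41.7%), in 4 of 12 amino acid enzymes (33.3%), in 2 of 7 amino acid transporters (28.6%), and in 0 of 30 HIF targets, 21 glycolytic genes and 17 cell cycle markers. A match is a run of letters in this window and not a measured binding site.

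Of 40 HIF target genes listed, 38 were tested, and 35 rose with 5% O2 under oligomycin while 0 fell. Their median log2 fold change was 1.63, against 0.02 over all genes tested, of which 16.7% rose, and 33 of the 35 at least doubled. Of the 38, 34 reached the count minimum in both groups (31 higher, median 1.57), whereas Ankrd37, Ak4, Adm and Selenbp1 reached it through the low-oxygen libraries and not through oligomycin at standard oxygen. Ndufa4l2 and Cox4i2 were below the minimum, and Wsb1, Rora and Pfkfb4 did not pass the test.

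Ak4, an adenylate kinase of the mitochondrial matrix, was at 1.58, 0.857 and 1.91 TMM-scaled CPM with oligomycin at standard oxygen and at 45.6, 50.6 and 39.9 with oligomycin at 5% O2. The log2 fold change was 4.98 (adjusted p = 2.65e-13, SE 0.27). Bnip3, a receptor for mitophagy, went from 73.4, 76.8 and 64.1 CPM to 780.4, 802 and 724, with a log2 fold change of 3.43 (adjusted p = 1.34e-18, SE 0.100). Ankrd37, a HIF target of uncertain function, was at 1.21, 2.14 and 1.81 CPM and then at 32.9, 31.4 and 27.1, a change of 4.13 (adjusted p = 2.05e-13, SE 0.22) on the log2 scale. In each of these genes the low-oxygen libraries lay close together and far above the others, no overlap being a condition of naming them among the largest changes. Pdk1, the kinase that shuts pyruvate dehydrogenase, rose by 2.72 (adjusted p = 7.45e-18, SE 0.087), Fam162a, a mitochondrial protein, by 2.58 (adjusted p = 1.70e-20, SE 0.057) and Adm, the vasodilator adrenomedullin, by 4.42 (adjusted p = 9.05e-12, SE 0.29). Egln3, an oxygen-sensing prolyl hydroxylase that is itself a HIF target, stood at 81.3, 81.2 and 73.6 CPM and at 304, 296 and 281 at 5% O2, with a log2 fold change of 1.90 (adjusted p = 9.21e-17, SE 0.069).

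Most of the same targets fell with oligomycin at standard oxygen, a comparison that shares the oligomycin libraries with the one above. There 26 of 38 fell and 2 rose (of all genes, 16.4% fell and 16.9% rose, 33.3% in all). Ak4 was at 8.52, 12 and 14.8 CPM with DMSO, so that the oligomycin libraries lay below every DMSO library (log2 fold change -3.03, adjusted p = 1.88e-08, SE 0.30). Bnip3 was at 151, 182 and 218 CPM with DMSO and changed by -1.36 (adjusted p = 3.16e-11, SE 0.095). For Ak4 and Bnip3 the rise with 5% O2 was thus measured from a level below that of DMSO. Hif1a, which encodes the main alpha subunit and is regulated largely as protein, did not pass the test (log2 fold change -0.20, adjusted p = 0.589, SE 0.25). Its 3 oligomycin libraries were spread from 79.7 to 176 CPM, and its value was 0.14 without the highest of them. With outer or inner well as a covariate the value was -0.41 (adjusted p = 0.00881), and without the filter on low counts -0.22 (adjusted p = 0.0333), both called. Of 11 genes of oxygen sensing and eIF2 alpha kinases 3 were called, against 33.3% of all genes, with a median of 0.01. Cited2, which competes with HIF for its coactivators, rose by 1.09 (adjusted p = 0.000189, SE 0.21), as did Vhl (log2 fold change 0.49, adjusted p = 0.00031, SE 0.098) and Hif1an (log2 fold change 0.36, adjusted p = 0.00218, SE 0.087).

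Of the glycolytic genes, 18 of 23 rose and 4 fell, with a median of 1.04 (over all genes, 16.7% rose and 16.5% fell). Slc16a3, the lactate exporter MCT4, went from 11.7, 9.94 and 9.44 CPM to 88.6, 90.7 and 88.5 (log2 fold change 3.11, adjusted p = 1.49e-16, SE 0.12). Ldha, which turns pyruvate into lactate, went from 599, 603 and 575 to 2198, 2229.7 and 2234 CPM (log2 fold change 1.91, adjusted p = 1.83e-20, SE 0.043). Pfkfb3, which makes the activator of phosphofructokinase, rose by 2.97 (adjusted p = 2.84e-10, SE 0.23) and Pgk1 by 1.80 (adjusted p = 5.99e-17, SE 0.064). Pgam1 and Eno1, enzymes of lower glycolysis, rose by 2.00 (adjusted p = 1.44e-19, SE 0.052) and 1.56 (adjusted p = 7.08e-20, SE 0.038). The 4 that fell included Slc2a4, the insulin-responsive glucose transporter of muscle (log2 fold change -1.05, adjusted p = 7.49e-05), and Hk2 (-0.49, adjusted p = 8.96e-05). Slc2a1, the general glucose transporter, behaved unlike most of the list, being at 35.2, 46.3 and 50.5 CPM with DMSO, 63.2, 63.6 and 62.0 with oligomycin and 107, 107 and 108 with oligomycin at 5% O2, and rose by 0.77 (adjusted p = 3.16e-07, SE 0.091). Several of these genes have processed copies in the mouse genome, among which short reads can be divided in pseudoalignment.

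**Figure D1:**
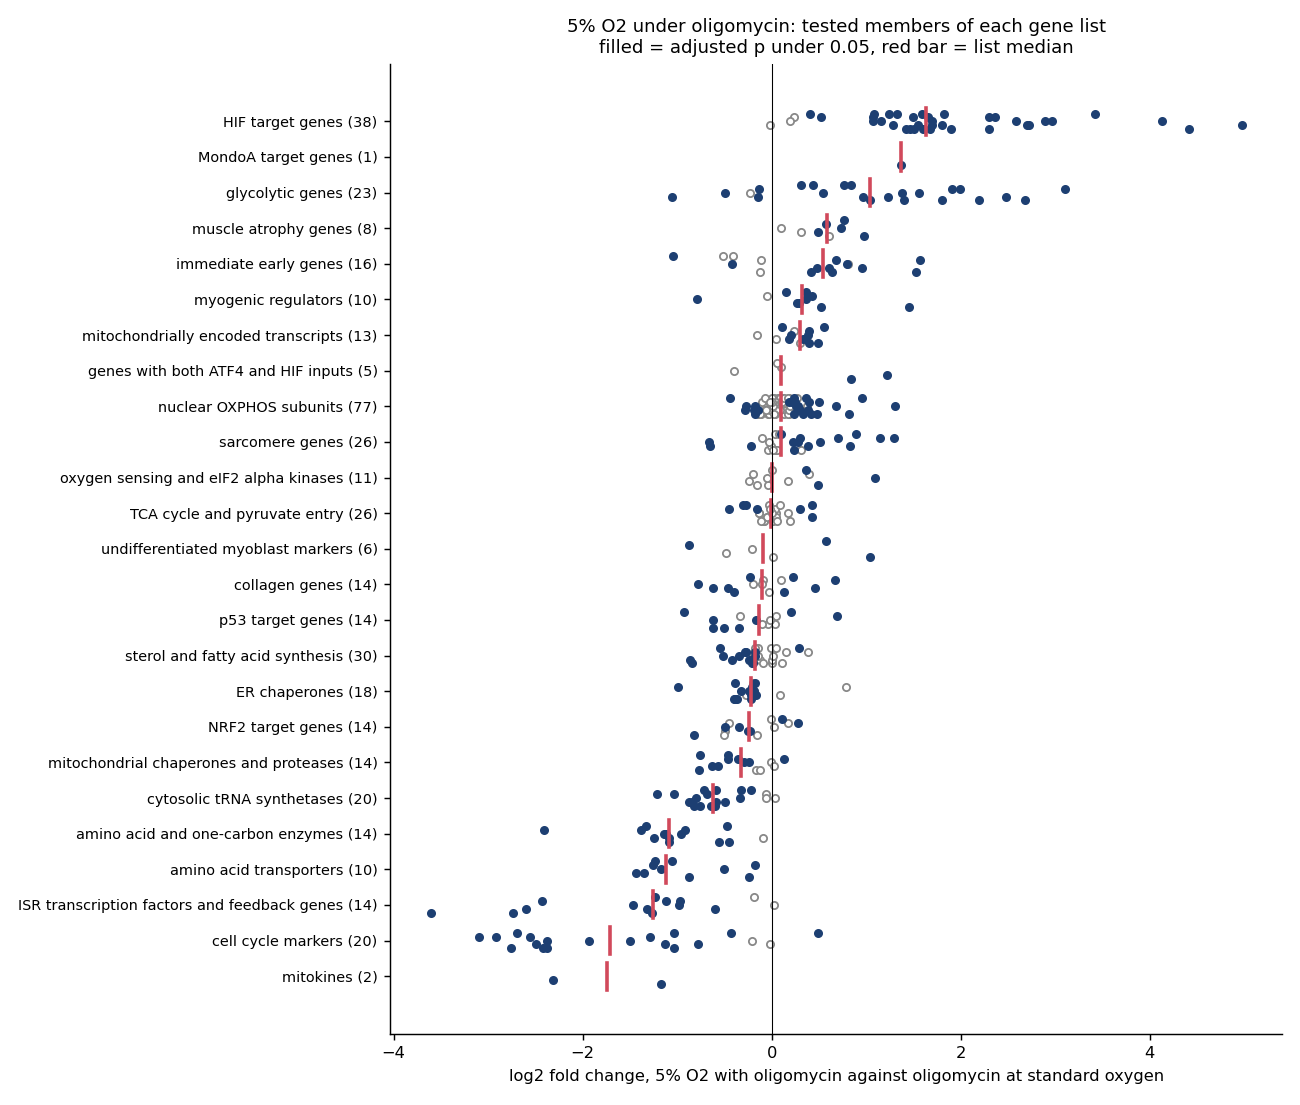
Log2 fold change (x axis) of each tested member of 25 gene lists, for oligomycin at 5% O2 against oligomycin at standard oxygen, with the list on the y axis and the number tested in brackets. Filled points passed an adjusted p of 0.05 in edgeR, open points did not, and red bars are medians, which ran from -1.74 for the 2 mitokines and -1.71 for cell cycle markers to 1.63 for HIF targets.

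Most regulators of the integrated stress response fell. Of 15 transcription factors and feedback genes listed, 14 were tested, 12 fell with 5% O2 under oligomycin and 0 rose, with a median log2 fold change of -1.25. Over all genes tested 16.5% fell and 16.7% rose. Cebpb was below the count minimum, and Jdp2 and Atf5 did not pass the test. Atf3, a transcription factor induced downstream of ATF4, was at 185, 176 and 183 CPM with oligomycin and at 11.8, 15.1 and 17.8 with oligomycin at 5% O2. The log2 fold change was -3.61 (adjusted p = 2.32e-16, SE 0.14), so that the low-oxygen libraries lay closer to the DMSO libraries (3.49, 4.17 and 3.30 CPM) than to those with oligomycin alone. Ddit3, which encodes CHOP, went from 318, 318 and 314 CPM to 45.2, 46.3 and 51.4 (log2 fold change -2.73, adjusted p = 5.53e-19, SE 0.076). Its gene overlaps that of the methionyl-tRNA synthetase Mars on the other strand, and reads were counted without strand. Overlaps of this kind with another tested gene were also found for Ankrd37 (Ufsp2), Fam162a (Wdr5b), Smim5 (Recql5), Avil (Tsfm), Slc6a9 (B4galt2), Wars (Wdr25), Hspd1 (Hspe1), Dnaja3 (Coro7), Cyp51 (Akap9), Mybph (Adora1), Ccna2 (Exosc9), Col18a1 (Slc19a1), Junb (Prdx2) and Acta1 (Gm20388), and on the same strand for Dnaja3 (Vasn) and mt-Co3 (mt-Atp6). Trib3, a pseudokinase that restrains ATF4, went from 278, 280.2 and 275 to 46.4, 51.3 and 57.0 CPM (log2 fold change -2.43, adjusted p = 1.56e-17, SE 0.080).

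Atf4 itself, whose mRNA also rises in this response, stood at 652, 625 and 673 CPM with oligomycin and at 248, 255 and 279 with 5% O2 added, and fell by 1.32 (adjusted p = 4.39e-17, SE 0.046). Ppp1r15a, or GADD34, which reverses eIF2 alpha phosphorylation, changed by -2.60 (adjusted p = 5.25e-19, SE 0.072). Sesn2, a sensor that restrains mTORC1, changed by -1.46 (adjusted p = 8.69e-11, SE 0.11) and Chac1, which degrades glutathione, by -1.24 (adjusted p = 5.66e-11, SE 0.089). Both mitokines fell. Gdf15 went from 44.6, 44.2 and 45.9 to 6.61, 10.8 and 9.56 CPM (log2 fold change -2.32, adjusted p = 6.14e-11, SE 0.17), and Fgf21 from 173, 172 and 179 to 73.8, 76.6 and 82.9 (log2 fold change -1.17, adjusted p = 1.64e-11, SE 0.079). With DMSO, Gdf15 was at 1.85, 1.63 and 2.17 CPM and Fgf21 at 29.5, 30.4 and 26.1, below the low-oxygen libraries in both.

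Effector genes of the response fell as well. Of 14 enzymes of amino acid and one-carbon synthesis tested, 13 fell (median -1.09), of 10 amino acid transporters 10 (median -1.11), and of 20 cytosolic tRNA synthetases 17 (median -0.62), and 0 of these genes rose, against 16.5% lower and 16.7% higher over all genes. Asns, asparagine synthetase, was at 316, 298 and 312 CPM with oligomycin and at 138, 136 and 148 with oligomycin at 5% O2, with no overlap and a log2 fold change of -1.14 (adjusted p = 3.72e-14, SE 0.056). Mthfd2, the mitochondrial folate enzyme, changed by -1.12 (adjusted p = 2.72e-12, SE 0.069), Pck2, mitochondrial PEP carboxykinase, by -1.39 (adjusted p = 6.06e-14, SE 0.070), Got1, cytosolic aspartate aminotransferase, by -1.33 (adjusted p = 3.93e-13, SE 0.074) and Psat1, of serine synthesis, by -0.45 (adjusted p = 4.82e-08, SE 0.048). Among transporters, Slc3a2, the shared heavy chain of amino acid exchangers, went from 564, 557 and 559 to 227, 225 and 261 CPM (log2 fold change -1.24, adjusted p = 5.39e-16, SE 0.049). Slc6a9, a glycine transporter, changed by -1.43 (adjusted p = 5.23e-11, SE 0.10) and Slc7a1, a carrier of cationic amino acids, by -1.17 (adjusted p = 5.88e-10, SE 0.096). Eprs, Wars and Gars, which charge glutamate and proline, tryptophan and glycine tRNAs, changed by -1.04, -1.21 and -0.88 (adjusted p = 3.00e-15, 3.22e-15 and 3.01e-13).

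Of 5 tested genes known to take input from both ATF4 and HIF, 2 rose and 0 fell, against 33.3% called over all genes. Ero1l, an oxidase of the endoplasmic reticulum, was at 37.4, 43.8 and 53 CPM with DMSO, 55.7, 67.6 and 72.1 with oligomycin, 214, 225 and 232 with 5% O2 alone and 154, 161 and 139.5 with oligomycin at 5% O2, and rose in the comparison by 1.22 (adjusted p = 5.06e-10, SE 0.099). Ddit4, an inhibitor of mTORC1, was higher by 0.84 (adjusted p = 0.00888, SE 0.24), which did not hold without 1 library (adjusted p = 0.0558 without low-oxygen replicate 2, 0.0542 without oligomycin replicate 1). Vegfa, the angiogenic factor, was at 5.34, 4.35 and 4.91 CPM with DMSO, 7.90, 6.6 and 4.96 with oligomycin, 11.7, 12 and 12.6 with 5% O2 alone and 7.05, 7.04 and 6.81 with the combination. The oligomycin groups overlapped for Vegfa and differed by 0.10 (adjusted p = 0.742, SE 0.20), with replicate 3 of oligomycin alone setting the sign (-0.07 without it). Stc2, a secreted glycoprotein, had a value of -0.39 (adjusted p = 0.182, SE 0.22). Txnip, which MondoA induces, was at 23.2, 21.5 and 17.4 CPM with oligomycin and 51.2, 53.3 and 56.6 with 5% O2 added (log2 fold change 1.37, adjusted p = 1.27e-08, SE 0.13), while Arrdc4, the other MondoA target listed, was below the minimum.

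**Figure D2:**
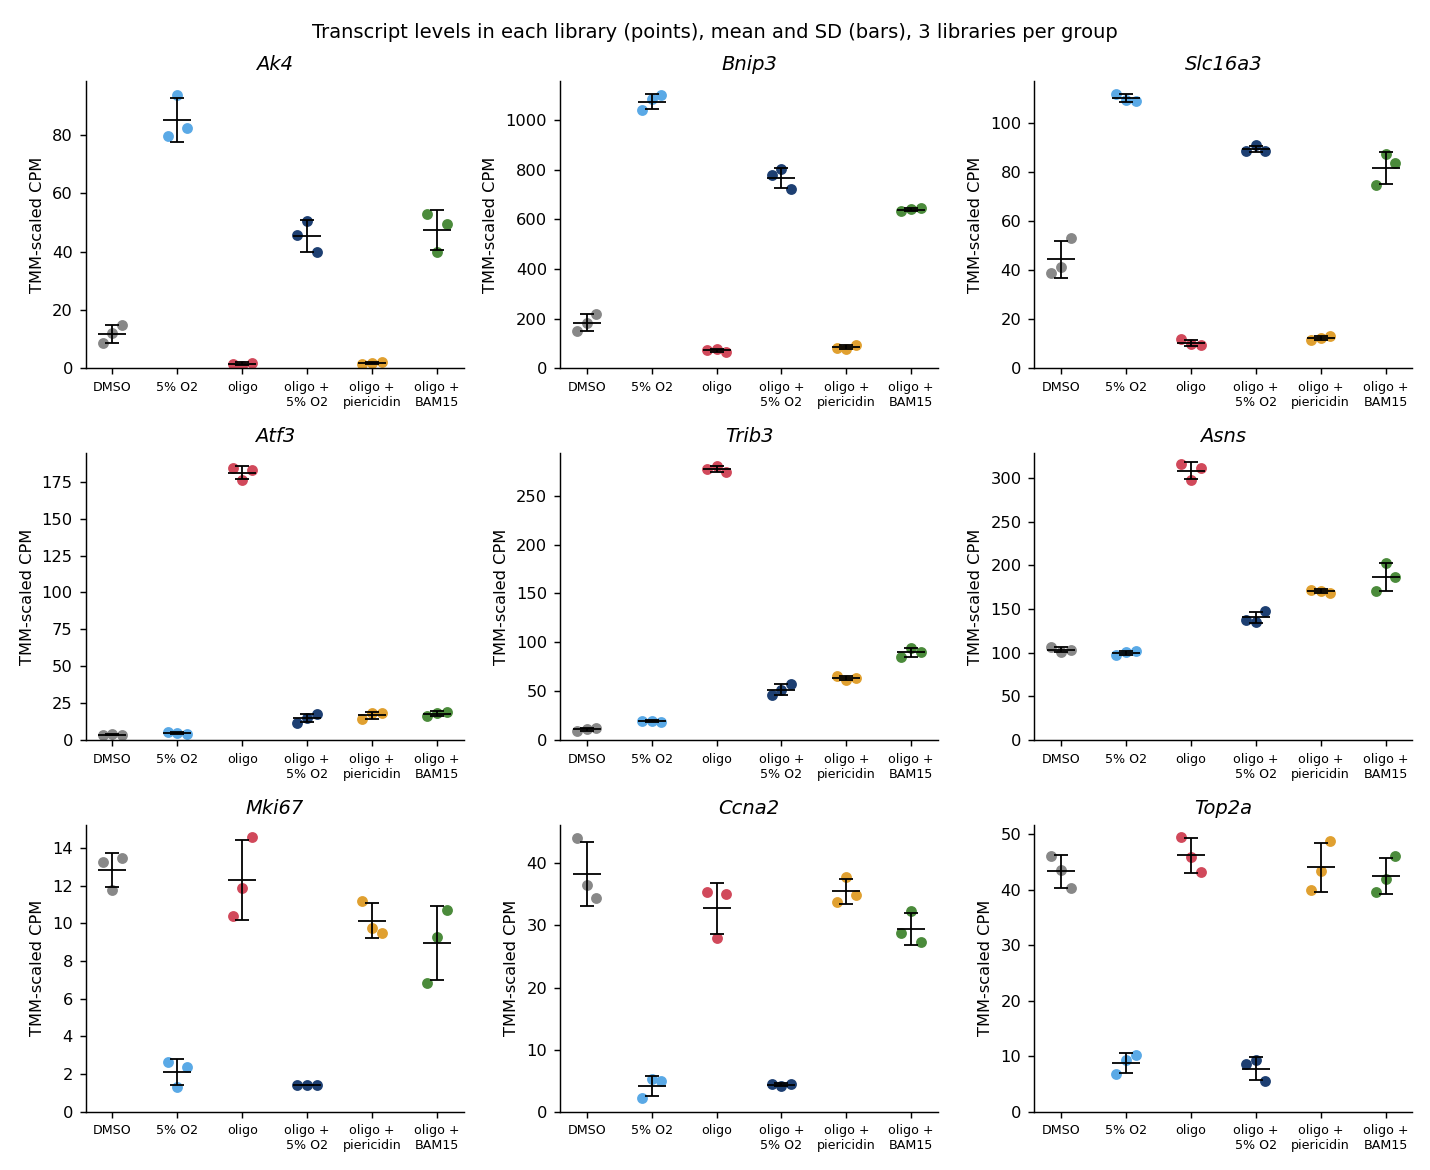
TMM-scaled CPM (y axes, from 0) of 9 genes in 6 groups of myotubes (x axes), with a point for each of 3 libraries and bars for the mean ± SD. Ak4, Bnip3 and Slc16a3 were high in both low-oxygen groups and with BAM15, Atf3, Trib3 and Asns were highest with oligomycin alone, and Mki67, Ccna2 and Top2a were low in the low-oxygen groups.

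Cell cycle markers fell, 17 of 20 tested lower and 1 higher, with a median of -1.71, against 16.5% lower and 16.7% higher over all genes. Mki67 was at 10.4, 11.9 and 14.6 CPM with oligomycin and 1.43, 1.43 and 1.43 with oligomycin at 5% O2 (log2 fold change -3.09, adjusted p = 3.94e-10, SE 0.25). Ccna2, the cyclin of S and G2 phases, went from 35.3, 28.0 and 35.0 to 4.41, 4.08 and 4.54 CPM (log2 fold change -2.91, adjusted p = 1.23e-12, SE 0.17). Ccnb1, the mitotic cyclin, changed by -2.69 (adjusted p = 1.71e-13, SE 0.14), Top2a, which untangles replicated DNA, by -2.56 (adjusted p = 1.45e-12, SE 0.15), and Pbk and Dlgap5, a mitotic kinase and a spindle protein, by -3.32 (adjusted p = 1.18e-09, SE 0.28) and -3.06 (adjusted p = 9.98e-10, SE 0.26). The marker that rose was E2f1 (0.49, adjusted p = 0.0484), a call lost in 10 of 13 other settings. Of the 20 genes, 15 reached the count minimum in both groups, 12 of them lower, with a median of -1.13. Mki67, Pbk and Dlgap5 held at most 15 counts in a library with oligomycin at 5% O2 and did not reach the minimum in that group.

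These genes mark cells that still divide, which in low serum are cells that did not fuse. Summed over the 20 genes, the level ran from 473 to 499 CPM in the oligomycin libraries and from 226 to 254 in those with oligomycin at 5% O2, with 0 genes at a count of 0. In RNA from a whole well, fewer dividing cells and less of these transcripts per cell cannot be told apart. Of 6 markers of undifferentiated myoblasts 2 rose and 1 fell (median -0.09), against 16.7% higher and 16.5% lower over all genes. Sdc4, a heparan sulphate proteoglycan of satellite cells, rose by 1.04 (adjusted p = 7.53e-15, SE 0.047) and Myf5, an early myogenic factor, fell by 0.88 (adjusted p = 2.34e-06, SE 0.12). Pax7, the satellite cell factor, was at 4.83, 3.77 and 4.48 and 6.50, 6.94 and 5.97 CPM and its call (log2 fold change 0.57, adjusted p = 0.0407, SE 0.21) was lost in 9 of 13 other settings, among them each removal of an oligomycin library. Their summed level was 412 to 449.9 CPM with oligomycin and 601 to 612 with oligomycin at 5% O2, a rise no larger than that of Sdc4 alone, from 171, 186 and 163 to 362, 366 and 343 CPM. The part of unfused cells in the other results was not tested.

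Among the 20 genes with the largest changes, some lie outside these groups. Gpr35, a receptor for kynurenic acid, was at 0.651, 0.428 and 0.381 CPM with oligomycin and 24.7, 23.0 and 29.4 with oligomycin at 5% O2 (log2 fold change 5.69, adjusted p = 3.00e-15, SE 0.25). Apln, the peptide apelin, changed by 4.62 (adjusted p = 5.20e-09, SE 0.43) and Mgarp, a mitochondrial protein of hypoxic cells, by 4.23 (adjusted p = 2.71e-13, SE 0.23). Gpr35, Apln and Mgarp held at most 23 counts in an oligomycin library and reached the count minimum in the low-oxygen libraries and not in that group. Apln also differed among the low-oxygen libraries, at 39.3, 35.8 and 14.7 CPM, replicate 3 being the lowest.

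Others were high with DMSO, low with oligomycin and higher again at 5% O2. Smim5, a small membrane protein, was at 25.5, 24.6 and 26.7 CPM with DMSO, 1.95, 1.71 and 1.81 with oligomycin and 17.4, 18.2 and 16.4 with oligomycin at 5% O2 (log2 fold change 3.24, adjusted p = 1.42e-13, SE 0.17). Fst, follistatin, which binds myostatin and activin, was at 85.8, 98.8 and 96.1, 10.0, 12.2 and 9.44 and 93.3, 82.7 and 56.5 CPM in the same order (log2 fold change 2.87, adjusted p = 1.09e-12, SE 0.17). Scml4, a Polycomb-related gene, rose by 2.34 (adjusted p = 5.96e-12, SE 0.15) and Grhl3, a transcription factor, by 1.60 (adjusted p = 3.09e-08, SE 0.16).

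Among the genes with the largest falls, several were low in myotubes without oligomycin. B3gnt5, a glycosyltransferase of glycolipids, was at 1.23, 0.362 and 1.60 CPM with DMSO and went from 18.5, 14.9 and 13.2 with oligomycin to 1.32, 0.714 and 1.43 (log2 fold change -3.75, adjusted p = 7.94e-08, SE 0.41). Car6, a secreted carbonic anhydrase, went from 22.5, 19.0 and 21.1 to 1.76, 1.43 and 1.67 (log2 fold change -3.68, adjusted p = 1.77e-09, SE 0.32), and Cdsn, corneodesmosin of epidermis, was at 2.05, 3.44 and 2.93 CPM with DMSO and went from 85.4, 94.7 and 94.3 to 12.6, 10.1 and 11.2 (log2 fold change -3.02, adjusted p = 9.49e-15, SE 0.14). B3gnt5, Car6, Avil and Sh3tc2 reached the count minimum in the oligomycin libraries and not in those with oligomycin at 5% O2. Avil, Rad54b and Sh3tc2 fell by 3.57, 3.46 and 3.22 on the log2 scale (adjusted p = 7.28e-07, 2.03e-07 and 2.06e-05). Ptgs2, the inducible cyclooxygenase, was at 9.75, 8.61 and 9.72 CPM with DMSO and went from 97.9, 77.4 and 82.6 to 17.2, 19.0 and 16.1 CPM (log2 fold change -2.30, adjusted p = 3.72e-14, SE 0.11). For each of these 7 genes the libraries of the compared groups did not overlap, which for all but Ptgs2 was a condition of being named.

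Of 13 mitochondrially encoded transcripts, 9 rose and 0 fell (median 0.30), with mt-Cytb, of complex III, from 784, 810.1 and 786 to 1133, 1073 and 1129.7 CPM (log2 fold change 0.49, adjusted p = 6.36e-10, SE 0.040) and the complex IV subunits mt-Co3 and mt-Co2 higher by 0.55 (adjusted p = 3.11e-07, SE 0.066) and 0.40 (adjusted p = 6.05e-09, SE 0.037). With DESeq2 size factors 8 of the 13 were higher and 1 was lower, and without oligomycin replicate 3 the numbers were 6 and 1. Of 77 nuclear-encoded subunits of oxidative phosphorylation, 21 rose, 7 fell and 49 did not pass the test (median 0.10), a share near the 33.3% called over all genes. Cox7a1, a muscle isoform of a complex IV subunit, had the largest value, 1.31 (adjusted p = 0.0157, SE 0.41). Without oligomycin replicate 2 the 21 became 10, and with DESeq2 size factors the 7 became 12. Ndufv3 of complex I rose by 0.95 (adjusted p = 4.21e-09, SE 0.088), Uqcrh of complex III by 0.82 (adjusted p = 6.54e-09, SE 0.077) and Sdhd of complex II by 0.50 (adjusted p = 2.55e-09, SE 0.044). In the TCA cycle and pyruvate entry, 3 of 26 rose and 4 fell, against 33.3% called over all genes. Those that fell included Dld, the shared dehydrogenase subunit, by 0.46 (adjusted p = 4.54e-07, SE 0.055) and Idh3g by 0.27 (adjusted p = 1.20e-05, SE 0.041), while Pdk3, a pyruvate dehydrogenase kinase, was higher by 0.43 (adjusted p = 0.000377, SE 0.086). Without low-oxygen replicate 2, 2 of the 26 were lower.

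Of 14 mitochondrial chaperones and proteases, 9 fell and 1 rose (median -0.32), against 16.5% lower and 16.7% higher over all genes. Hspa9, the matrix HSP70, was at 950.2, 936 and 913 CPM with oligomycin and 555, 535 and 553 with oligomycin at 5% O2 (log2 fold change -0.77, adjusted p = 1.16e-13, SE 0.040), Dnaja3, its partner, changed by -0.76 (adjusted p = 6.26e-10, SE 0.063) and Hspd1, HSP60, by -0.57 (adjusted p = 1.85e-10, SE 0.044). The member that rose, Yme1l1 (0.13, adjusted p = 0.0253), was not called in 7 of 13 other settings. Of 18 chaperones of the endoplasmic reticulum, 13 fell and 0 rose (median -0.22), led by Hspa5, or BiP, from 844, 771 and 791 to 393, 408 and 414 CPM (log2 fold change -0.99, adjusted p = 3.42e-16, SE 0.038). Calr, calreticulin, changed by -0.39 and Sel1l, of protein degradation there, by -0.40 (adjusted p = 2.75e-09 and 3.32e-06).

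Muscle genes changed in both directions. Of 26 sarcomere genes, 12 rose, 3 fell and 11 did not pass the test (median 0.10), against 16.7% higher and 16.5% lower over all genes. Myh7, the slow myosin heavy chain, went from 215, 201 and 193 to 502, 504 and 483 CPM (log2 fold change 1.29, adjusted p = 1.58e-11, SE 0.087), Actc1, cardiac actin, from 907, 904 and 911 to 1604, 1602 and 1634 (log2 fold change 0.83, adjusted p = 1.56e-15, SE 0.035) and Mybph rose by 0.70 (adjusted p = 3.43e-15, SE 0.031), whereas the fast myosin Myh4 fell by 0.66 (adjusted p = 4.36e-08). Acta1 differed by 0.05 (adjusted p = 0.0789, SE 0.022). Of 10 myogenic regulators 8 rose and 1 fell. The 1 that fell was Myog, myogenin, at 778, 758 and 699 CPM with DMSO, 1815, 1845 and 1819 with oligomycin and 1047, 1044 and 1088 with oligomycin at 5% O2 (log2 fold change -0.79, adjusted p = 6.12e-14, SE 0.040), and Mymx, a fusion peptide, rose by 1.45 (adjusted p = 1.53e-13, SE 0.077). Of 8 atrophy genes 5 rose and 0 fell, among them the ubiquitin ligases Fbxo32 (0.57) and Fbxo30 (0.73) and the transcription factor Foxo1 (0.77), with adjusted p = 8.55e-06, 4.03e-06 and 0.000321.

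The counts of the following lists stand beside 16.7% higher and 16.5% lower over all genes tested. Of 14 p53 targets tested 6 fell and 2 rose, with Plk2, a stress-induced kinase, from 335, 330.2 and 319 to 171, 166 and 179.8 CPM (log2 fold change -0.93, adjusted p = 4.01e-14, SE 0.046), Aen, an apoptotic nuclease, at -0.62 (adjusted p = 4.33e-10, SE 0.050) and Eda2r, a death receptor, at -0.50 (adjusted p = 1.39e-07, SE 0.057). Of 16 immediate early genes 9 rose and 2 fell. Egr1 and Junb were higher by 0.95 and 0.61 and Myc lower by 1.04 (adjusted p = 8.14e-12, 3.40e-10 and 6.25e-10). Of 30 genes of sterol and fatty acid synthesis 14 fell and 1 rose (median -0.18), among them Elovl6 (-0.87), Fdps (-0.54), Cyp51 (-0.52) and Idi1 (-0.27), with adjusted p = 1.44e-06, 2.72e-08, 5.46e-09 and 0.000483, while Hmgcs1, the first committed enzyme, had a value of -0.12 (adjusted p = 0.0570, SE 0.049). Of 14 collagen genes 5 fell, Col18a1 (-0.78), Col6a2 (-0.62) and Col6a1 (-0.39) having the smallest p-values, and 4 rose, a number that was 2 without low-oxygen replicate 2 or oligomycin replicate 2. Of 14 NRF2 targets 5 fell, Hmox1, heme oxygenase, by 0.82 (adjusted p = 1.85e-08, SE 0.082) and Taldo1 by 0.23 (adjusted p = 0.00180, SE 0.054), and 2 rose, Pgd by 0.28 (adjusted p = 0.00160, SE 0.066). The NRF2 list gave 1 gene higher in 8 of 13 other settings, and its lower genes numbered 3 without low-oxygen replicate 2.

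The oligomycin response at 5% O2 was measured against DMSO at 5% O2, and no library is shared with the standard-oxygen pair. At standard oxygen, oligomycin changed 4164 genes, 717 of them at least 2-fold. Within 5% O2 it changed 532 (4.26%), 255 higher (2.04%) and 277 lower (2.22%), with 40 at least 2-fold. The 332 genes that rose at least 2-fold with oligomycin at standard oxygen had a median log2 fold change of 1.38 there and 0.22 within 5% O2, where 55 of them (16.6%) were called higher. The 385 that fell at least 2-fold had medians of -1.33 and -0.16, with 25 (6.49%) called lower. The genes were chosen on the standard-oxygen libraries, so these medians are a description.

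Part of the stress response rose within 5% O2. Of the 14 regulators 7 were called higher there and 0 lower, against 13 and 0 at standard oxygen. Atf3 rose by 1.65 (adjusted p = 7.82e-07, SE 0.17), against 5.62 at standard oxygen. Trib3, at 19.9, 19.4 and 18.5 CPM with 5% O2 alone, rose by 1.42 against 4.66, Ddit3 by 0.82 against 4.06, Gdf15 by 1.34 against 4.57 and Fgf21 by 1.03 against 2.61, with the change called at both oxygen levels for each. HIF targets fell with oligomycin at 5% O2 too, 24 of 38 lower and 0 higher (median -0.47), Bnip3 by 0.49 (adjusted p = 0.00112), Egln3 by 0.70 (adjusted p = 2.60e-07) and Ak4 by 0.91 (adjusted p = 0.00232). Of the 13 mitochondrially encoded transcripts 9 rose with oligomycin at 5% O2 (median 0.36), whereas 9 fell and 2 rose with it at standard oxygen.

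**Figure D3:**
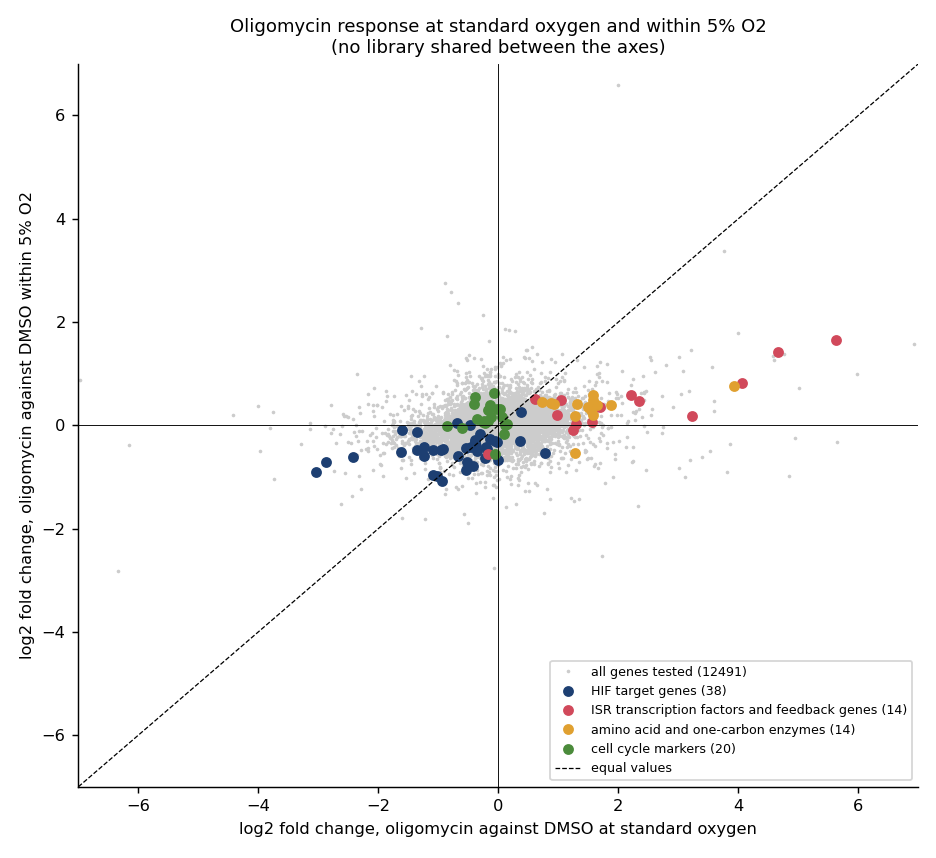
Log2 fold change of each tested gene with oligomycin against DMSO at standard oxygen (x axis) and within 5% O2 (y axis), with 4 gene lists in colour and the dashed line at equal values. The stress response regulators reach 5.62 on the x axis and no more than 1.65 on the y axis, and most HIF targets lie below 0 on both axes.

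The interaction of 5% O2 and oligomycin tests whether the oxygen effect differed between DMSO and oligomycin. It was called at 2177 genes (17.4%), 983 with a positive term (7.87%) and 1194 with a negative term (9.56%). The 14 amino acid and one-carbon enzymes tested each had a negative term that passed, as did 11 of 14 stress regulators and 16 of 20 tRNA synthetases, the largest among regulators being Atf3 (log2 fold change -3.98, adjusted p = 1.26e-11, SE 0.25), Trib3 (log2 fold change -3.24, adjusted p = 3.46e-15, SE 0.13) and Ddit3 (log2 fold change -3.23, adjusted p = 4.98e-16, SE 0.11). HIF targets were divided, 12 with a positive term and 6 with a negative one. On the log2 scale, Ak4 responded more to 5% O2 with oligomycin than with DMSO (log2 fold change 2.13, adjusted p = 0.000134, SE 0.36), as did Slc16a3 (log2 fold change 1.79, adjusted p = 3.82e-09, SE 0.15), while Pgk1 did not pass (log2 fold change 0.06, adjusted p = 0.715, SE 0.088), nor Egln3 (log2 fold change -0.18, adjusted p = 0.200, SE 0.095), and Slc2a1 responded less (log2 fold change -0.93, adjusted p = 8.62e-06, SE 0.13). The mean of Ak4 at standard oxygen was 1.45 CPM with oligomycin and 11.8 with DMSO, and at 5% O2 45.4 and 85.3. For Slc16a3 these means were 10.4 and 44.3, and 89.3 and 110. The larger ratios were thus taken from lower levels and reached lower ones. Of 20 cell cycle markers 4 had a positive term and 0 a negative one, with Mki67 at -0.49 (adjusted p = 0.385, SE 0.35) and Ccna2 at 0.27 (adjusted p = 0.515, SE 0.25).

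Without oligomycin, 5% O2 changed 2758 genes (22.1%), 1536 higher (12.3%) and 1222 lower (9.78%). Of the genes called higher with 5% O2 under oligomycin, 763 were also called higher under DMSO, 36.5% of the former and 49.7% of the latter, and of those called lower 583 were shared, 28.2% and 47.7%. The comparisons have no library in common but share the position column of their low-oxygen libraries. HIF targets rose without oligomycin (35 of 38, 0 lower, median 1.67), Bnip3 from 151, 182 and 218 to 1042, 1085 and 1101 CPM (log2 fold change 2.55, adjusted p = 2.45e-16, SE 0.095). Cell cycle markers fell with 19 of 20 called and 1 higher (median -2.27), Mki67 from 13.2, 11.8 and 13.5 to 2.64, 1.32 and 2.36 CPM (log2 fold change -2.61, adjusted p = 3.08e-09, SE 0.23). The stress regulators went the other way, 7 higher and 2 lower (median 0.30), with Trib3 at 0.81 (adjusted p = 8.29e-07, SE 0.100) and Atf3 at 0.37 (adjusted p = 0.218, SE 0.20), and of the 14 amino acid enzymes 4 rose and 2 fell. Of the 13 mitochondrially encoded transcripts 7 fell and 1 rose under DMSO.

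**Figure D4:**
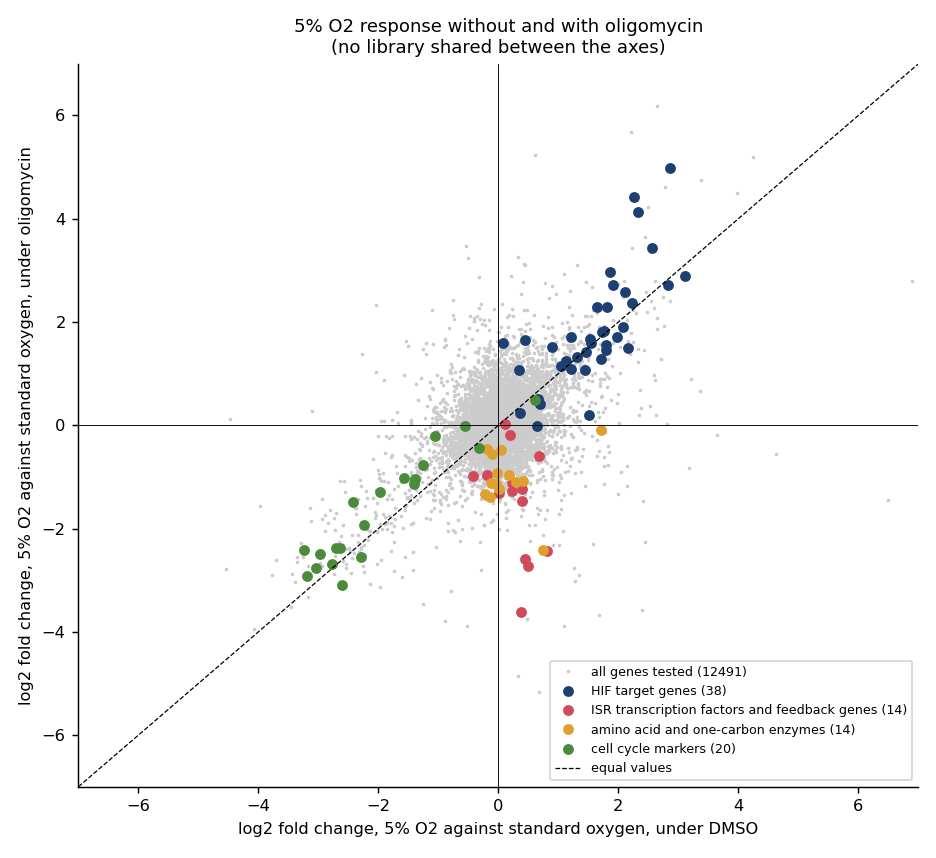
Log2 fold change of each tested gene with 5% O2 under DMSO (x axis) and under oligomycin (y axis), with 4 gene lists in colour and the dashed line at equal values. Cell cycle markers other than E2f1 lie at negative values on the x axis. HIF targets lie on both sides of the dashed line, most of them at positive values on both axes. Most stress regulators and amino acid enzymes lie below 0 on the y axis, down to -3.61 for Atf3, with medians of 0.30 and -0.01 on the x axis.

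Other additions to oligomycin allowed direct comparison with 5% O2, piericidin, which stops electron entry at complex I, and BAM15, which dissipates the proton gradient. Oligomycin at 5% O2 differed from oligomycin with piericidin at 2241 genes (17.9%), 1312 higher (10.5%) and 929 lower (7.44%), and from oligomycin with BAM15 at 1792 (14.3%), 1002 higher (8.02%) and 790 lower (6.32%), the latter falling to 1177 when only those groups were modelled. Atf3 was at 14.1, 18.3 and 18.2 CPM with piericidin and 16, 18.2 and 19.1 with BAM15, and the difference of the low-oxygen group was -0.18 (adjusted p = 0.456, SE 0.15) from the former and -0.26 (adjusted p = 0.264, SE 0.14) from the latter. Over the 14 regulators, 6 were lower at 5% O2 than with piericidin and 10 lower than with BAM15, and 0 were higher than in either. Trib3 was at 65.1, 61.3 and 63.6 CPM with piericidin and at 84.6, 94.2 and 90.2 with BAM15. Asns was at 172, 171 and 168 CPM with piericidin and at 170.1, 203 and 186 with BAM15, so that its levels ran from oligomycin alone down through BAM15 and piericidin, which overlapped, to 5% O2. Against piericidin, 2 of 14 amino acid and one-carbon enzymes were higher at 5% O2 and 6 lower, 1 of 10 transporters higher and 2 lower, and 2 of 20 tRNA synthetases higher and 2 lower. Against BAM15 the same lists had 0 higher and 10 lower, 0 higher and 5 lower, and 1 higher and 6 lower. Fgf21 was higher at 5% O2 than with piericidin (log2 fold change 0.35, adjusted p = 0.00245, SE 0.081) and BAM15 (log2 fold change 0.90, adjusted p = 2.49e-08, SE 0.082).

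HIF targets were higher at 5% O2 than with piericidin at 37 of 38 genes (0 lower, median 1.62), Bnip3 being at 81.5, 77.5 and 92.3 CPM with piericidin. Against BAM15, 6 were higher and 8 lower (median 0.05), with Bnip3 at 633, 642 and 644 CPM and Ak4 at 53, 39.8 and 49.6, the latter differing by -0.06 (adjusted p = 0.868, SE 0.18). Against oligomycin alone, Ak4 with BAM15 was higher by 5.04 on the log2 scale and Ak4 at 5% O2 by 4.98, comparisons that share the oligomycin libraries. Cell cycle markers were lower at 5% O2 than with piericidin at 16 of 20 genes and than with BAM15 at 13, and 0 were higher. Mki67 was at 11.2, 9.73 and 9.51 CPM with piericidin and at 6.84, 9.30 and 10.7 with BAM15. Smim5 differed from its level with piericidin by 0.15 (adjusted p = 0.490, SE 0.13) and from that with BAM15 by 0.03 (adjusted p = 0.899, SE 0.13), whereas Fst was higher at 5% O2 than with either (0.60 and 0.81, adjusted p = 0.00395 and 0.000339). The mitochondrially encoded transcripts were higher at 5% O2 than with BAM15 at 10 of 13 genes and than with piericidin at 4, and 0 were lower.

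**Figure D5:**
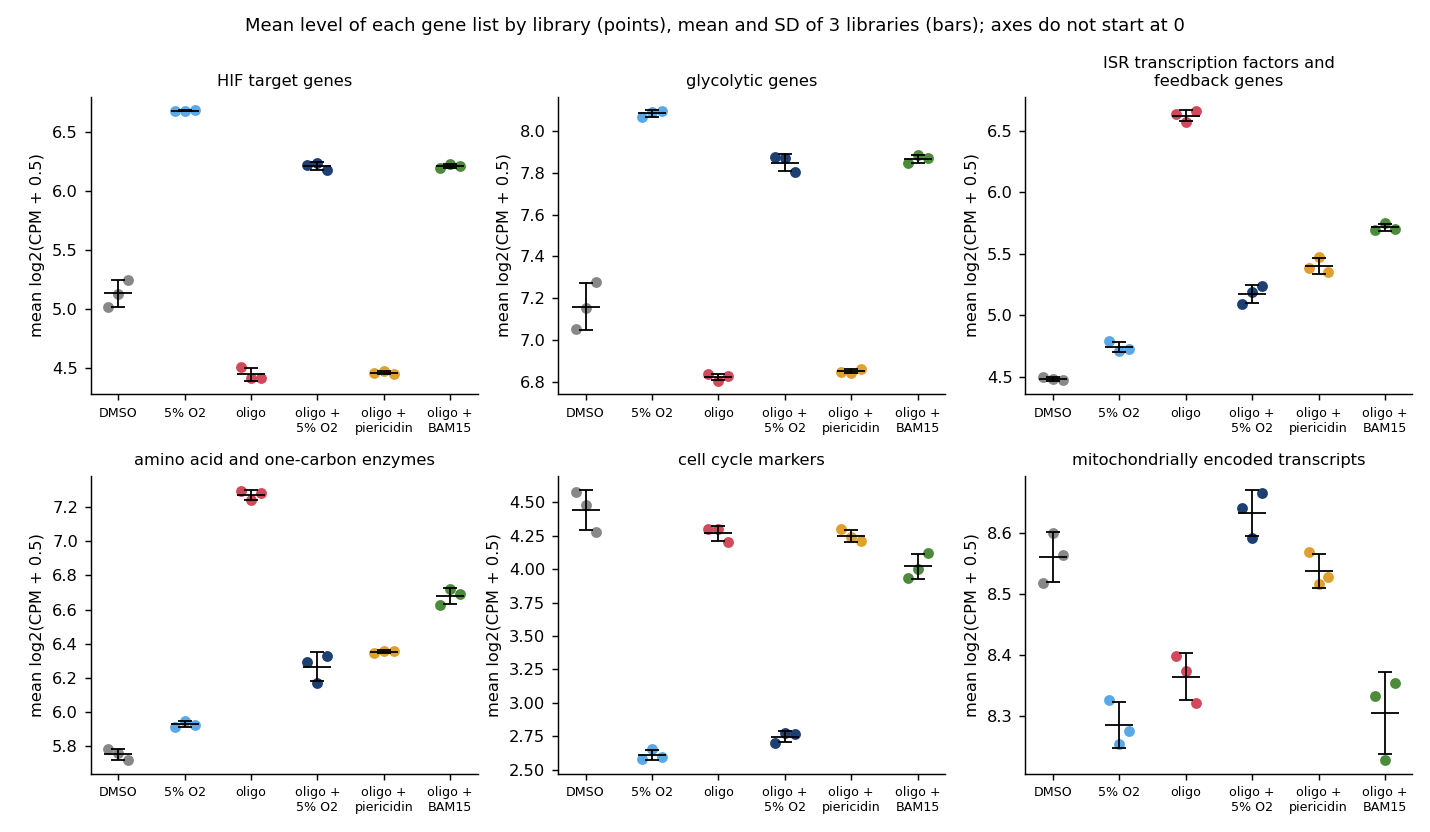
Mean of log2(TMM-scaled CPM + 0.5) over the tested members of 6 gene lists (y axes, which do not start at 0) in each library of 6 groups (x axes), with bars for the mean ± SD of 3 libraries. HIF targets and glycolytic genes were high with 5% O2 and with BAM15, stress regulators and amino acid enzymes were highest with oligomycin alone, cell cycle markers were lowest in the low-oxygen groups, and the mean of mitochondrially encoded transcripts was highest with oligomycin at 5% O2.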

How the data were processed

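RNA from 6 libraries of the comparison and 21 other libraries of untransduced myotubes (27 in all, 9 groups of 3) was analysed as deposited. Per the methods and the submitters' processing notes, 50 ng of RNA gave poly(A) Smart-seq2 libraries, read on 2 flow cells as pairs of 37 bases without strand, converted with bcl2fastq 2.20.0.422 and pseudoaligned by the authors with kallisto 0.44 to Ensembl 93 (GRCm38.p6) transcripts, which gave the deposited estimated counts, whole numbers per gene for 54146 genes and 4 transgenes (0 in these libraries). Pseudoalignment can divide reads among near-identical copies.

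A gene was kept where every replicate of some group held 16 counts or more (12491). edgeR 4.0.16 (quasi-likelihood F test, TMM, R 4.3.3, limma 3.58.1) was fitted to the 27 libraries with group means. P-values were adjusted by the Benjamini-Hochberg method across the kept genes and called at 0.05. Every adjusted p here comes from it unless another tool is named, and SE is the absolute log2 fold change over the square root of F. The fit was also run on simulated data, and the outcome is not given here. Alternatives were DESeq2 1.42.0 and its size factors, no filter, the compared groups alone, a replicate block, an outer-well covariate (from the position code, whose meaning the labels do not give) and removal of each library.

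Genes named were up to 10 per direction with the largest called change (mean of at least 50 counts, no overlap), up to 5 per direction for the interaction, the 3 members with the smallest p per list and a fixed set of hypoxia and stress genes. Members, lists and tests were chosen with earlier results of these data known. Others named (Pfkfb4, Wsb1, Rora, Selenbp1, Slc2a4, Hk2, E2f1, Yme1l1, Cox7a1 and members called on 1 side of a list) were chosen after their values were seen. A gene that this rule names is not reported here. Motifs were searched on both strands of RefSeq promoters.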

Additional observations from a re-analysis of the deposited data

Results flagged for a closer look

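Each result here was picked out because the effect of 5% O2 under oligomycin differed from its effect under DMSO, by the edgeR interaction term, at 2177 genes in all. Values are interaction log2 fold changes, positive where the log2 response to 5% O2 was higher under oligomycin. Among HIF targets and glycolytic genes they were 2.13 for Ak4, 2.15 for Adm, 1.81 for Ankrd37, 1.79 for Slc16a3, 1.10 for Pfkfb3, 0.88 for Bnip3, 0.85 for Pgam1, 0.82 for Pdk1, 0.59 for Ldha, 0.48 for Fam162a and 0.34 for Eno1, and -0.93 for Slc2a1. Genes with both ATF4 and HIF input had -2.22 for Stc2, -1.21 for Vegfa and -1.10 for Ero1l.

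Stress response genes had -3.98 for Atf3, -3.24 for Trib3, -3.23 for Ddit3, -3.04 for Ppp1r15a, -1.86 for Sesn2, -1.63 for Chac1 and -1.34 for Atf4, and the mitokines -3.23 for Gdf15 and -1.57 for Fgf21. Amino acid enzymes had -1.24 for Pck2, -1.11 for Got1, -1.09 for Asns, -0.99 for Mthfd2 and -0.27 for Psat1, transporters -1.45 for Slc6a9, -1.41 for Slc7a1 and -1.37 for Slc3a2 and tRNA synthetases -1.29 for Wars, -1.05 for Eprs and -0.95 for Gars. Chaperones had -1.14 for Dnaja3, -1.12 for Hspa9, -0.59 for Hspd1, -0.42 for Hspa5 and -0.40 for Sel1l.

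Genes with large changes outside these lists had 4.38 for Scml4, 3.75 for Smim5, 3.48 for Gpr35, 3.19 for Fst, 2.81 for Grhl3, 1.85 for Apln and 1.74 for Mgarp on the positive side and -5.96 for Avil, -5.36 for Car6, -4.30 for Cdsn, -4.22 for B3gnt5, -3.87 for Ptgs2, -2.43 for Sh3tc2 and -2.20 for Rad54b on the negative side. Car6 held 2, 0 and 3 counts and Avil 3, 1 and 2 in the DMSO libraries, so their values depend on the prior count. The calls of Sh3tc2, Rad54b and Apln were lost in several removals of 1 library.

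Mitochondrial genes had 0.77 for Uqcrh, 0.75 for mt-Cytb, 0.63 for mt-Co3, 0.49 for Sdhd, 0.18 for mt-Co2, -0.20 for Idh3g and -0.36 for Dld. Muscle genes had 0.96 for Mymx, 0.16 for Mybph, -0.34 for Acta1, -0.53 for Myh7, -0.80 for Myf5 and -1.25 for Myog. The remaining lists gave 0.59 for Egr1, 0.34 for Junb, 0.32 for Idi1, 0.29 for Cyp51, -0.46 for Eda2r, -0.89 for Aen, -1.0 for Hmox1, -1.39 for Plk2 and -1.74 for Myc.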

How the results depend on the processing

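The counts of genes called in the 7 comparisons stayed within 1.5 times in the alternatives run, with 1 exception: 5% oxygen against BAM15, both with oligomycin, gave 1792 genes, and 1177 with only the 2 groups compared. Of the values called, 0 turned their direction. With 1 library left out, 5% oxygen under oligomycin gave 3386 to 4037 genes (main 4156), the interaction of 5% oxygen and oligomycin 1847 to 2178 (2177), oligomycin at standard oxygen 3510 to 3899 (4164) and oligomycin within 5% oxygen 367 to 411 (532). DESeq2 size factors gave 4158 genes for 5% oxygen under oligomycin, with 46.1% of them higher, the DESeq2 Wald test 3991, no filter 3620 and the outer-well covariate 4024. Over the 108 genes followed in that comparison and its alternatives together, 11 calls were lost and 7 gained, and over their interaction terms 38 and 14. Of the counts of list members higher or lower, 591 stayed within 1.5 times under an alternative and 59 did not.

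Replicate numbers did not pair the libraries: deviations of libraries with the same number correlated at -0.012 on average (108 pairs) and those with different numbers at 0.0061 (216), and for the oligomycin groups the same-number values were -0.116, -0.168 and -0.41. For the low-oxygen groups they were 0.0504, 0.27 and 0.418, of which 1 is under 0.1. With the replicate block, 5% oxygen under oligomycin gave 4052 genes, the interaction of 5% oxygen and oligomycin 2135 and oligomycin within 5% oxygen 506. With 3 libraries a group, low-count genes such as Apln carry wide errors.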
